A study of Rattus norvegicus with 24 samples.

Results

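The miR-135 family of the rat brain was followed through small RNA libraries of injured and control animals. Its rows were chosen by name from the deposited miRNA count tables, as every row that begins with rno-miR-135a- or rno-miR-135b-, and 4 of the 728 miRNA rows matched. They were rno-miR-135a-5p, rno-miR-135a-3p, rno-miR-135b-5p and rno-miR-135b-3p. The family was taken up because of its values in the cortex of injured against sham-operated rats, where rno-miR-135a-3p was among the miRNAs the study picked for PCR. Every difference between injured and sham cortex is therefore given as a description, with its standard error and no p-value. In the study's own PCR on RNA of the same samples, rno-miR-135a-3p did not differ significantly between injured and sham cortex. The study reported that most of its cortical candidates without a significant PCR difference still went in the direction of the sequencing. Its text does not say whether rno-miR-135a-3p was among them.

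The libraries came from 12 adult male Sprague-Dawley rats at 3 months after surgery, and each rat gave the perilesional cortex and the ipsilateral thalamus. In the TBI groups (6 rats) a pulse of fluid had struck the dura through an opening in the skull, which is lateral fluid-percussion injury, and the sham-operated groups (6 rats) had the surgery without the pulse. The TBI rats had been selected by the study for signs of chronic inflammation around the lesion on magnetic resonance images, so they stand for such rats and not for every injured rat. Summed miRNA reads ran from 744564 to 4069284 per cortex library and from 523298 to 4139901 per thalamus library. The cortex libraries of rats 50, 55 and 56 and the thalamus libraries of rats 55 and 56 held less than 1000000 reads. The miRNAs listed as neuronal markers were detected in both regions, 4 of 4, with a summed level of 248553 to 607479 CPM in cortex and 122882 to 324082 CPM in thalamus, where CPM is the count per 1000000 miRNA reads after TMM scaling. No marker of thalamus against cortex was fixed, so the region labels themselves were not checked.

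A miRNA gene is transcribed as a hairpin, and an enzyme cuts out a short duplex with a strand from each arm, named 5p and 3p. One strand, the guide, is usually kept in the Argonaute protein and the other, the passenger, is usually lost, so the read counts of the arms of a hairpin differ. The guide finds its target messages mainly through bases 2 to 8, the seed. In the brain, miR-135 is known for targeting the serotonin transporter and an autoreceptor for serotonin, and for roles in neuronal growth and stress responses.

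The mature sequences show which members can bind the same sites and which could be confused in mapping. They were taken from RefSeq (assembly GRCr8), are written 5′ to 3′, and carry the seed in capitals.
rno-miR-135a-5p: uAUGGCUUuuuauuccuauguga
rno-miR-135b-5p: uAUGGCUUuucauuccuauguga
rno-miR-135a-3p: uGUAGGGAuggaagccaugaaa
rno-miR-135b-3p: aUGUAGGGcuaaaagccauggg
The 5p arms of miR-135a and miR-135b had the same seed, which no other of the 693 mature names in the table carried. Over their 23 bases they differed by 1 substitution, U11C, counted from the 5′ end with the miR-135a base first. A read with 1 sequencing error at that base could be assigned to the other row, and the number of mismatches allowed in mapping was not given in the sources used here. The 3p arms each had a seed of their own. When the miR-135b-3p sequence was shifted by 1 base, 5 substitutions (A8C, G10A, G11A, A20G and A21G) remained over 21 compared bases. Both hairpins held 16 bases between the mature arms.

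On GRCr8 the Mir135a hairpin lies at chr7:28499166-28499265 on the minus strand, inside the long non-coding RNA gene LOC102548260. The Mir135b hairpin lies at chr13:46191018-46191114 on the plus strand, inside the spans of the protein-coding genes Lemd1 and Blacat1. The reads themselves had been mapped by the authors to an older assembly, RGSC3.4, and no position on that assembly is given.

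miR-135a-5p, the guide arm, was the most abundant member in every group. Its level ran from 154 to 216 CPM (median 180.2) in sham cortex and from 147 to 364 CPM (median 242) in TBI cortex. In sham thalamus it ran from 401 to 1098 CPM (median 559) and in TBI thalamus from 319 to 831 CPM (median 577). All 6 sham thalamus libraries lay above all 6 sham cortex libraries, whereas the TBI and sham ranges overlapped within each region. By group means the order was sham cortex (183 ± 21.3 CPM, SD, n = 6), TBI cortex (255 ± 78.1), TBI thalamus (600.0 ± 188) and sham thalamus (629.6 ± 254). The thalamus groups, neighbours in this order, did not differ beyond their spread.

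miR-135a-3p, the passenger arm of the same hairpin, was read far less often, with 7 to 24 reads per library in sham cortex, 7 to 71 in TBI cortex, 12 to 244 in sham thalamus and 17 to 198 in TBI thalamus. Counting error alone is therefore large in the shallow libraries. Its level ran from 8.02 to 12.6 CPM (median 10.4) in sham cortex and from 10.1 to 32.5 CPM (median 22.0) in TBI cortex. Of the TBI cortex libraries, the lowest was rat 56 with 7 reads, and it was the only one within the sham range. In sham thalamus the level ran from 24.1 to 50.4 CPM (median 25.96) and in TBI thalamus from 27.1 to 54.8 CPM (median 45.3). The order of the group means was sham cortex (10.1 ± 1.75 CPM, SD, n = 6), TBI cortex (21.8 ± 8.39), sham thalamus (32.7 ± 12.0) and TBI thalamus (43.4 ± 11.4). Each group overlapped with its neighbours in this order, TBI and sham cortex through the library of rat 56 alone.

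miR-135b-5p, the guide arm of the second hairpin, had another pattern. In sham cortex it ran from 80.2 to 138 CPM (median 106) and in TBI cortex from 35.2 to 79.7 CPM (median 73.1), so that all TBI libraries lay below all sham libraries. In sham thalamus it ran from 49.2 to 158 CPM (median 81.5) and in TBI thalamus from 46.2 to 115 CPM (median 90.3), and these ranges overlapped with each other and with both cortex groups. The group means were 106 ± 19.3 CPM in sham cortex, 86.8 ± 39.9 in sham thalamus, 83.0 ± 26.7 in TBI thalamus and 68.8 ± 16.7 in TBI cortex (SD, n = 6 each).

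miR-135b-3p was close to the detection limit, with between 1 and 20 reads in a library. Its mean level was 4.46 ± 1.60 CPM in sham cortex, 3.32 ± 1.56 in TBI cortex, 3.53 ± 1.26 in sham thalamus and 3.31 ± 1.17 in TBI thalamus (SD, n = 6 each). It did not pass the filter on low counts in any comparison and was not tested, which leaves 3 of the 4 members with a fitted difference.

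**Figure D1:**
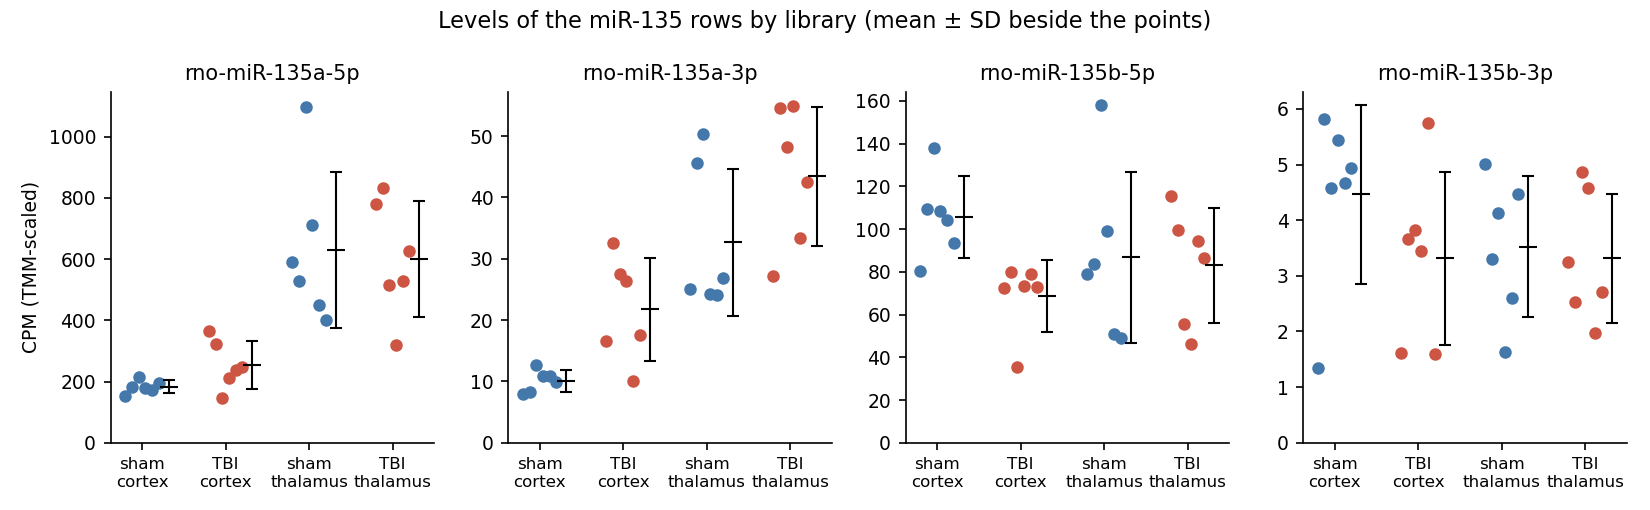
Level of each miR-135 row in CPM after TMM scaling (vertical axis, a separate scale per panel) in the 24 libraries, with 1 point per library and the mean ± SD (n = 6) beside each group. The thalamus points of miR-135a-5p sit between 319 and 1098 CPM and those of sham cortex between 154 and 216, while miR-135b-5p has its lowest group mean in TBI cortex (68.8 CPM).

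The first comparison asked how injured and sham cortex differed, and its values chose the family. Both arms of miR-135a were higher in TBI cortex than in sham cortex, and miR-135b-5p was lower. The log2 fold change was 1.20 (SE 0.27) for miR-135a-3p, 0.52 (SE 0.18) for miR-135a-5p and -0.57 (SE 0.19) for miR-135b-5p. By the size of the change miR-135a-3p ranked 4 of the 371 miRNAs tested, miR-135b-5p ranked 47 and miR-135a-5p ranked 66. Over all 371 miRNAs, edgeR called 21 at an adjusted p under 0.05 (5.66%), and 9 (2.43%) had TMM-scaled groups that did not overlap, as miR-135b-5p did. Nothing is read from these shares, since the rule used this contrast.

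These values depended in part on the scaling. Without TMM, so that only library size was used, the median of all cortical miRNAs moved by 0.21 on the log2 scale and the calls split into 36 higher and 3 lower, against 11 higher and 10 lower with TMM. On that scale miR-135b-5p ran from 35.4 to 83.6 CPM in TBI cortex and from 65.1 to 126 CPM in sham cortex, and the groups overlapped. Its direction was kept under every scaling that was run.

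In cortex other miRNAs moved alongside the family. Of 12 activity- and synapse-linked miRNAs, 4 fell and none rose in TBI cortex, with a median log2 fold change of -0.33 against 0.05 for all miRNAs tested. They were miR-132-5p (log2 fold change -0.80, SE 0.12), miR-212-5p (-0.96, SE 0.17), miR-128-3p (-0.75, SE 0.16) and miR-132-3p (-0.55, SE 0.14). The first and last are products of an activity-regulated hairpin of neurons, miR-212 comes from its neighbour, and miR-128 is abundant in neurons. Over all 371 miRNAs tested in cortex, 10 were called lower and 11 higher. The study had picked miR-132-5p, miR-212-5p and miR-128-3p on these same libraries, and the list was chosen with earlier results known. Their fall is therefore not independent evidence for the list. Of the 4 neuronal markers, all also among those 12, 1 fell (miR-128-3p), and of the 6 leukocyte and microglia markers none passed the test. The summed level of that last list was 1589 to 2300.0 CPM in TBI cortex and 1171 to 1619 CPM in sham cortex. Of the 8 choroid plexus and ependyma markers 4 could be tested and 1 (miR-211-5p, log2 fold change 1.33, SE 0.34) rose, with a summed level of 1249.6 to 3576 CPM in TBI and 1185 to 2525 CPM in sham. Of the 9 other miRNAs that the study picked on these same libraries, 8 were tested, 5 rose and 3 fell, which is not independent evidence of their direction. In the study's PCR only miR-375-3p and miR-211-5p of its cortical picks differed significantly, though most of the others went in the direction of the sequencing. No oligodendrocyte (3 tested) or blood cell marker (2 tested) was called. In this bulk tissue, fewer cells of a type and less of a miRNA per cell cannot be told apart, and the part of other cell types in the differences was not tested.

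The second comparison asked whether the family differed between injured and sham rats in the thalamus, which the choice of the family did not use. None of the 3 members tested passed the threshold. The log2 fold change was 0.42 (SE 0.25, edgeR quasi-likelihood adjusted p = 0.774) for miR-135a-3p, with overlapping ranges. It was -0.05 (SE 0.27, edgeR adjusted p = 0.986) for miR-135a-5p and -0.05 (SE 0.30, edgeR adjusted p = 0.986) for miR-135b-5p. Across the 390 miRNAs tested edgeR called 2 (0.513%), and 5 (1.28%) had groups that did not overlap, none of them a miR-135 member. Of the leukocyte and microglia markers, 2 of 5 tested rose in TBI thalamus, miR-155-5p (log2 fold change 1.45, SE 0.26) and miR-146a-5p (1.04, SE 0.20), both induced in inflammation. These are also the 2 miRNAs that the study itself called in thalamus on these same libraries. The list was chosen with earlier results known, so their rise is not independent evidence for it. Its summed level was 1471 to 2821 CPM in TBI and 1081 to 1525 CPM in sham thalamus. No member of the other lists was called in TBI against sham thalamus. A p above the threshold does not show that the groups were alike.

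The injury effect in thalamus minus that in cortex was -0.74 (SE 0.37) on the log2 scale for miR-135a-3p, -0.55 (SE 0.35) for miR-135a-5p and 0.53 (SE 0.37) for miR-135b-5p. All 3 had the sign opposite to the cortical difference. The contrast subtracts that difference, so this sign follows wherever the thalamus difference is the smaller, and nothing is read from it. No p-value is given for these 3 values, because the contrast contains the one that chose the family.

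The third comparison asked how thalamus differed from cortex. Its cortex libraries, sham and TBI, are those whose values chose the family, so its p-values are not independent of that choice. The family was chosen on the difference between TBI and sham cortex, in which both miR-135a arms were lower in sham cortex. For these arms that choice favours a larger regional difference in sham rats and a smaller one in TBI rats. In sham rats both arms of miR-135a were higher in thalamus. The log2 fold change was 1.79 (SE 0.25, edgeR adjusted p = 5.71e-06) for miR-135a-5p and 1.71 (SE 0.28, edgeR adjusted p = 3.19e-05) for miR-135a-3p, which is 3.45-fold and 3.28-fold. For both arms every thalamus library exceeded every cortex library. miR-135b-5p was not called, with a log2 fold change of -0.27 (SE 0.26, edgeR adjusted p = 0.485). Of 407 miRNAs tested, 102 (25.1%) were called and 57 (14.0%) did not overlap between the regions, so a regional difference was common among miRNAs, and the miR-135a arms ranked 30 and 32 by its size. The calls split into 52 higher and 50 lower in thalamus, against 146 and 22 with library size only, where both miR-135a arms were still called and higher and miR-135b-5p was not called.

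In TBI rats the same arms were called again, with smaller fitted differences. The log2 fold change was 1.23 (SE 0.25, edgeR adjusted p = 0.000506) for miR-135a-5p and 0.98 (SE 0.26, edgeR adjusted p = 0.00535) for miR-135a-3p. miR-135b-5p was not called, at 0.27 (SE 0.27, edgeR adjusted p = 0.506). Here 111 of 407 miRNAs (27.3%) were called and 48 (11.8%) did not overlap, with 57 calls higher and 54 lower (69 and 34 with library size only), and each miR-135 member overlapped between the regions after TMM scaling. With library size only, miR-135a-5p did not overlap in TBI rats (398 to 950.2 CPM in thalamus and 148 to 349 CPM in cortex). On that scale 53 of the 407 miRNAs tested did not overlap, so this was a common outcome.

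Within single rats the direction was regular for miR-135a. Its 5p arm was higher in the thalamus of 6 of 6 sham rats, by 2.04-fold to 5.09-fold (median 3.36-fold), and of 6 of 6 TBI rats, by 1.52-fold to 3.51-fold (median 2.38-fold). Its 3p arm was higher in 6 of 6 sham rats (median 2.92-fold) and in 6 of 6 TBI rats (median 1.92-fold). In sham rats the 6 of 6 follows for both arms from the lack of overlap between the regions, so it adds no separate evidence. The cortex values are again those that chose the family. How many other miRNAs kept 1 direction in every rat was not counted. After TMM scaling miR-135b-5p was higher in the thalamus of 1 of 6 sham rats, with a median thalamus-to-cortex ratio of 0.841, and of 5 of 6 TBI rats, with a median ratio of 1.22. That count in sham rats depended on the scaling, since with library size only miR-135b-5p was higher in the thalamus of 4 of 6 sham rats (median ratio 1.27) and of 5 of 6 TBI rats (median ratio 1.33). Both miR-135a arms were higher in 6 of 6 rats of each condition on that scale too.

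**Figure D2:**
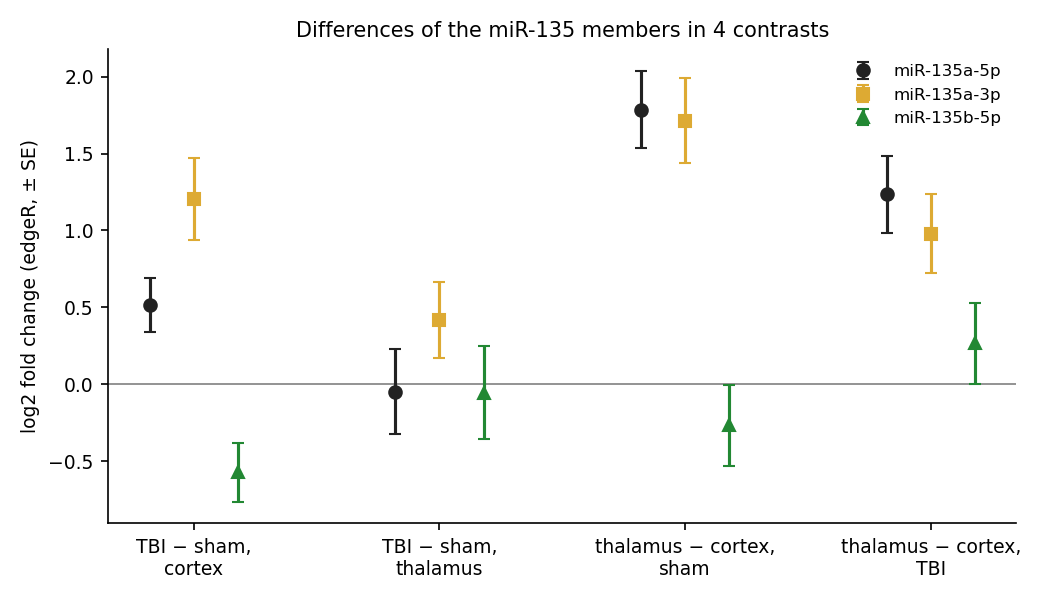
Log2 fold change (vertical axis, edgeR fit, bars ± SE) of 3 miR-135 members in 4 contrasts (horizontal axis). Both miR-135a arms stand above 0 in each thalamus against cortex contrast (0.98 to 1.79), and miR-135b-5p (-0.57 in TBI against sham cortex) parts from them in cortex.

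Markers of other cells moved between the regions too. The 3 oligodendrocyte markers (miR-219a-5p, miR-219a-2-3p and miR-338-3p) were all higher in thalamus in sham and in TBI rats. Their summed level was 3584 to 4321 CPM in sham cortex and 10137 to 17587 CPM in sham thalamus, and 3482 to 4988 CPM and 11084 to 14293 CPM in TBI rats. The choroid plexus and ependyma list, whose miR-34b-5p and miR-34c-5p belong to ciliated cells, had 2 of 5 tested members higher in sham and 3 of 5 in TBI thalamus. Its sum in TBI thalamus ran from 2039 to 20085 CPM, with rat 45 the highest, and in sham thalamus from 2523 to 7879 CPM, against 1185 to 3576 CPM in cortex. Of the 12 activity- and synapse-linked miRNAs, 8 were lower in sham thalamus and 10 in TBI thalamus, and none was higher. Of the 4 neuronal markers, which are all among those 12, 2 were lower in sham thalamus and 4 in TBI thalamus. Of the 9 miRNAs the study picked in cortex, 2 were higher and 3 lower in thalamus in sham rats, and likewise in TBI rats. Of these picks miR-132-5p, miR-212-5p and miR-128-3p are among the 12 as well, so the lists are not separate. Over all miRNAs tested, 25.1% were called between the regions of sham rats and 27.3% between those of TBI rats. None of the 6 leukocyte and microglia markers or of the 3 tested blood cell markers passed in either contrast. The part of these cells in the miR-135a difference was not tested.

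The arms of miR-135a were compared within each library, where library scaling cancels. Over the 6 libraries of a group the summed reads were 97 for the 3p arm and 1801 for the 5p arm in sham cortex, 238 and 2763 in TBI cortex, 499 and 10420 in sham thalamus, and 657 and 8964 in TBI thalamus. The 3p arm took 5.22% ± 0.645 of the miR-135a reads in sham cortex, 8.52% ± 4.49 in TBI cortex, 5.17% ± 1.68 in sham thalamus and 7.50% ± 3.87 in TBI thalamus (SD, n = 6 each). The 5p arm was thus the major arm in all 24 libraries. A share of reads is not a share of molecules, since adapter ligation favours some ends over others.

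The share varied more between TBI libraries than between sham libraries. This is a description, since no test of spread was run and the cortex libraries are those whose values chose the family. The sham cortex shares also rest on only 7 to 24 reads of the 3p arm per library. In sham cortex it ran from 4.30% to 5.98% (median 5.24%) and in TBI cortex from 4.07% to 15.8% (median 7.90%). In sham thalamus it ran from 3.29% to 7.92% (median 4.74%) and in TBI thalamus from 3.37% to 14.7% (median 6.25%). The highest libraries were the cortex of rat 45, with 36 of 228 reads on the 3p arm (95% Wilson interval 11.6% to 21.1%), and the thalamus of rat 52 (14.7%, interval 12.3% to 17.4%). These intervals cover counting error only. The cortex of rat 52 (11.1%), the cortex of rat 24 (9.15%) and the thalamus of rat 45 (8.53%) were also above every sham value, which makes 5 of 12 TBI libraries. All 5 come from rats 24, 45 and 52, and libraries of the same rat are not independent. Such counts were not made for other miRNAs, so how common this is cannot be said. By comparison, both libraries of rats 22, 56 and 63 lay within the range of all sham libraries, 3.29% to 7.92%.

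**Figure D3:**
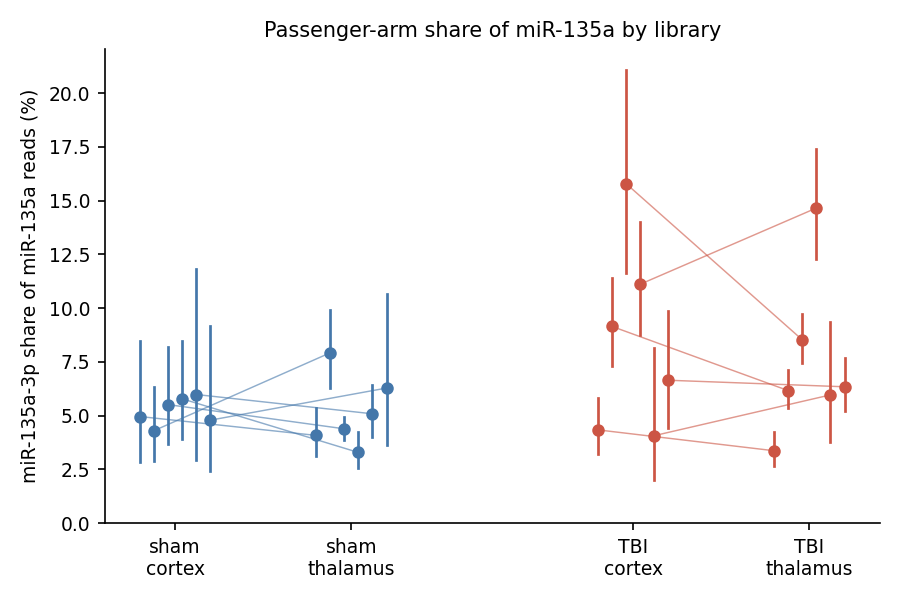
Share of miR-135a reads on the 3p arm (vertical axis, percent) in each library with its 95% Wilson interval, and lines that join the cortex and thalamus of a rat. Sham libraries lie between 3.29% and 7.92%, and TBI libraries spread from 3.37% to 15.8%.

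The 3p-to-5p ratio was compared on the log2 scale after adding 0.5 to each count. In thalamus it was 0.48 higher in TBI than in sham (SE 0.37), a difference within the scatter of the rats (p = 0.221 in an exact two-sided permutation test, adjusted p = 0.662 over 3 contrasts). Between thalamus and cortex it differed by -0.10 in sham rats (SE 0.21, exact permutation test, two-sided, p = 0.658) and by -0.19 in TBI rats (SE 0.46, exact permutation test, two-sided, p = 0.667), both with an adjusted p of 0.667. The smallest p this test allows is 0.00216. In the contrast that chose the family, TBI against sham cortex, the ratio was 0.57 higher (SE 0.35), with overlapping ranges. Without rat 45 that value fell to 0.34, and without rat 52 the thalamus value fell to 0.24.

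The miR-135a ratio was set beside those of the other two-arm miRNAs. Of 116 miRNAs with both arms read often enough, limma called a change in none (0%) in each of the 4 contrasts. At an unadjusted p under 0.05 it found 6 in TBI against sham cortex, 0 in TBI against sham thalamus, 10 in thalamus against cortex of sham rats and 5 in that of TBI rats. By the size of its change miR-135a ranked 22 in cortex and 14 in thalamus for injury, and 92 and 67 between the regions of sham and of TBI rats. The SD of its log2 ratio between libraries was 0.20 in sham cortex and 0.82 in TBI cortex, against a median of 0.46 and 0.51 over the 116 miRNAs. In thalamus it was 0.49 in sham and 0.75 in TBI, against 0.62 and 0.62. These spreads were not tested, and those in cortex come from the libraries whose values chose the family. For miR-135b the 3p arm took 4.00% ± 1.34 of reads in sham cortex, 4.97% ± 2.93 in TBI cortex, 4.51% ± 2.43 in sham thalamus and 4.55% ± 3.10 in TBI thalamus (SD, n = 6 each), from 177 reads of that arm in all.

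The members with the same seed, miR-135a-5p and miR-135b-5p, were compared in the same way. In sham cortex there were 57.6 ± 6.22 miR-135b-5p reads per 100 miR-135a-5p reads, and in TBI cortex 27.7 ± 5.82 (SD, n = 6 each). The sham libraries ran from 47.8 to 63.9 (median 60.3) and the TBI libraries from 19.9 to 34.8 (median 27.1), with no overlap. In thalamus the ratio was 13.5 ± 1.58 in sham (11.4 to 15.8) and 14.0 ± 2.47 in TBI (10.8 to 17.9). All 12 thalamus libraries thus lay below all 12 cortex libraries. Such ratios of other miRNA pairs were not computed, so how common a separation of this kind is cannot be said. In sham rats miR-135a-5p alone did not overlap between the regions either.

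On the log2 scale the ratio was 1.07 lower in TBI than in sham cortex (difference -1.07, SE 0.14), which is a description, since both of its members come from the contrast that chose the family. It differed by 0.03 between TBI and sham thalamus (SE 0.12, exact permutation test, two-sided, p = 0.820, adjusted p = 0.820 over 3 contrasts). The difference of thalamus from cortex was -2.08 in sham rats (SE 0.09) and -0.98 in TBI rats (SE 0.16). Both passed the threshold and were lower in thalamus in 6 of 6 rats (p = 0.00216 in the exact two-sided permutation test, its lower limit for these groups, adjusted p = 0.00325). The cortex side of these tests again holds the values that chose the family, so the p-values are not independent of that choice. Pairing the regions by rat gave p = 0.03125 for each in an exact sign-flip permutation test, the smallest that 6 pairs allow. Since the regions did not overlap, every pair had to go the same way, and the pairing adds no separate evidence.

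**Figure D4:**
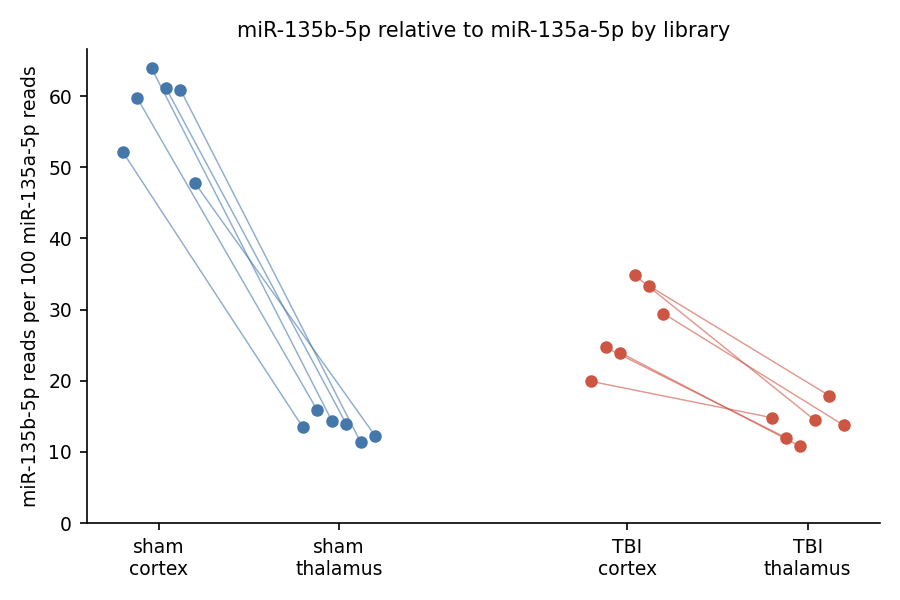
Reads of miR-135b-5p per 100 reads of miR-135a-5p (vertical axis) in each library, with lines that join the cortex and thalamus of a rat. Sham cortex lies between 47.8 and 63.9, TBI cortex between 19.9 and 34.8, and the thalamus libraries between 10.8 and 17.9.

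The sum of the 5p arms gives the reads that carry the shared seed. It was 289 ± 38.6 CPM in sham cortex, 324 ± 90.2 in TBI cortex, 716 ± 293 in sham thalamus and 683 ± 211 in TBI thalamus (SD, n = 6 each). In cortex the TBI range (182 to 437 CPM) enclosed the sham range (234 to 354 CPM). Beneath that sum the makeup of the family differed between sham and TBI cortex. miR-135b-5p made up 34.7% ± 2.38 of all miR-135 reads in sham cortex and 19.9% ± 3.47 in TBI cortex. In sham and TBI thalamus it made up 11.3% ± 1.14 and 11.4% ± 1.91 (SD, n = 6 each). The difference in cortex restates the values that chose the family, so it is a description.

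The miRNAs most like each member were found by Pearson's r of log2 CPM over all 24 libraries, among 406 other miRNAs. These r are descriptions, since libraries share regions, depth and rats. For miR-135a-5p they were miR-338-3p (0.93), miR-219a-5p (0.92), miR-758-3p (0.87), miR-21-5p (0.85) and miR-653-5p (0.82), the first 2 of them oligodendrocyte markers. For miR-135a-3p they were miR-25-3p (0.88), miR-34c-3p (0.84), miR-34b-3p (0.80), miR-298-5p (0.79) and miR-375-3p (0.78). For miR-135b-5p they were miR-136-5p (0.85), miR-33-5p (0.75), miR-384-3p (0.71), miR-101a-3p (0.71) and miR-153-3p (0.71).

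After the group means were subtracted, other likenesses remained. miR-135a-5p then followed miR-136-5p (0.89), miR-384-3p (0.88) and miR-135b-5p (0.88) most closely. miR-135b-5p followed miR-136-5p (0.90), miR-135a-5p (0.88) and miR-33-5p (0.82). miR-135a-3p followed miR-185-5p (0.74), miR-103-3p (0.73) and miR-17-5p (0.69). The arms of the miR-135a hairpin, with r = 0.73 over the 24 libraries, had r = 0.05 after the subtraction, while the 5p arms of separate hairpins had r = 0.23 before and 0.88 after it. The oligodendrocyte sum had r = 0.81 with miR-135a-5p over the 24 libraries and -0.46 after the subtraction. That sum is mostly miR-219a-2-3p, with a mean of 3500 CPM in sham cortex, against 241 for miR-338-3p and 185 for miR-219a-5p. Taken singly, miR-338-3p and miR-219a-5p kept r = 0.76 and 0.85 with miR-135a-5p after the subtraction, so the negative r does not hold for every marker. With miR-135a-3p, after the subtraction, the leukocyte and microglia sum had r = 0.63 and the choroid plexus and ependyma sum 0.10. Likewise after the subtraction, the serotonin-system sum had r = -0.56 with miR-135a-3p, and the sum of the miRNAs the study picked -0.48. The neuronal and the activity- and synapse-linked sums had -0.45 each, the blood cell sum -0.43 and the oligodendrocyte sum -0.34. Such sums follow their most abundant members. In sham cortex miR-26a-5p, of the serotonin-system list, had a mean of 80282 CPM. There miR-128-3p had 331428 CPM and miR-9a-5p 119672. The study-picked, neuronal and activity- and synapse-linked lists share miR-128-3p, and the latter 2 share miR-9a-5p, so their r are not separate observations.

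Base composition moved with these deviations. Among 368 miRNAs with a RefSeq sequence, the r with miR-135a-5p after subtraction was lower for miRNAs of higher GC content (Pearson's r across miRNAs -0.52), and likewise with miR-135b-5p (-0.44), but hardly so with miR-135a-3p (-0.02). The 20 miRNAs most like miR-135a-5p had a median GC content of 35.6%, against 47.8% over all 368. The members themselves held 30.4% GC (miR-135a-5p), 34.8% (miR-135b-5p) and 45.5% (miR-135a-3p), as the printed sequences show. miRNAs are not independent points, and the part of base composition in these likenesses was not tested.

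**Figure D5:**
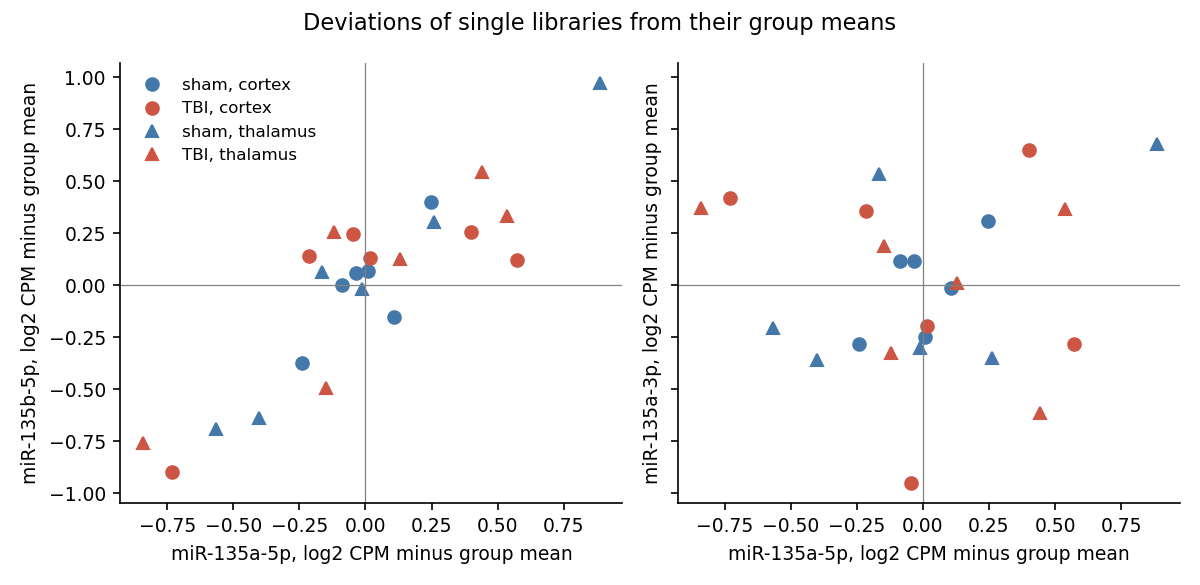
Log2 CPM of single libraries minus their group mean, with miR-135a-5p on the horizontal axes and miR-135b-5p (left) or miR-135a-3p (right) on the vertical axes. The points of the 5p arms lie along a line (r = 0.88), and those of the miR-135a arms do not (r = 0.05).

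The serotonin-system list, which holds miRNAs linked to the serotonin transporter or its neurons, was read as the pathway neighbours of miR-135. Of its 6 members 4 were tested. None was called for injury in cortex or in thalamus, where their median log2 fold changes were 0.46 and 0.21. Between regions, miR-15b-5p was higher (log2 fold change 1.05, SE 0.37, edgeR adjusted p = 0.0385) and miR-26a-5p lower (-0.31, SE 0.11, edgeR adjusted p = 0.0362) in sham thalamus, and none was called in TBI rats. miR-16-5p, which is known to target the serotonin transporter, had a log2 fold change of 0.40 (SE 0.13, edgeR adjusted p = 0.0782) in TBI against sham cortex, and miR-195-5p one of 0.52 (SE 0.17, edgeR adjusted p = 0.0926). Neither passed the threshold.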

How the data were processed

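Per the labels and the study's methods, total RNA of each sample was made into a small RNA library and sequenced. The authors trimmed adapters, checked reads with FastQC, mapped them to RGSC3.4 and annotated them with miRBase. The aligner and its mismatch setting are not given in the sources used here. The authors deposited whole read counts per miRNA, which were used here. The deposited CPM tables were not used. Groups and rat numbers came from the sample titles, so that libraries with the same number come from the same rat.

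For TBI against sham, each region had its own edgeR quasi-likelihood fit (edgeR 4.0.16, R 4.3.3) on counts kept by filterByExpr and scaled by TMM, and the other contrasts were fitted over all 24 libraries, with Benjamini-Hochberg adjustment over all miRNAs tested and a threshold of 0.05. SE was obtained from the fold change and F (size of the log2 change over root F). Ratios used a pseudocount of 0.5, with limma 3.58.1 over all two-arm miRNAs and exact permutation tests over samples. Log2 CPM used a prior count of 2. DESeq2 1.42.0 served as an alternative. The edgeR fits of TBI against sham and of thalamus against cortex were tested on simulated counts without a rat effect. So was the arm-ratio fit for TBI against sham thalamus. The injury effect in thalamus minus that in cortex, the fits with a rat term and DESeq2 were not tested in this way. The main fits had no rat term. Same-rat libraries deviated together from their group means with a median r of 0.40 (range -0.23 to 0.68, over 0.1 in 8 of 12 rats). No pair of libraries of a group agreed within counting noise (chi-square per degree of freedom at least 31.4 over 60 pairs).

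The members and lists were chosen with earlier results of these data known. Besides the members, the text names at most 4 miRNAs per list by smallest p, and the 5 and 3 most like each member before and after subtraction of group means. Two-arm miRNAs would have been named among those called, and there were none. The lists cover the serotonin system, activity and synapses, the miRNAs the study picked, and markers of neurons, oligodendrocytes, leukocytes and microglia, choroid plexus and ependyma, and blood cells.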

Additional observations from a re-analysis of the deposited data

Results flagged for a closer look

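In the 32 sets of 6 libraries examined (levels of each row, arm shares, the ratio of the 5p arms and the family sum, by group), 2 held a library that stood apart from the others by Dixon's gap criterion, and chance gives about 1.6. The level of miR-135b-5p in the TBI cortex of rat 45 was 35.2 CPM, and the next lowest was 72.5 CPM. The level of miR-135b-3p in the sham cortex of rat 26 was 1.34 CPM, from 2 reads, and the next lowest was 4.58 CPM.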

How the results depend on the processing

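The 23 results were recomputed under 404 alternatives (size factors, filters, DESeq2, pseudocounts, joint fits, each rat left out, a rat term). In 387 the direction and the side of the threshold, or for untested values the position within 1 SD, were kept, and in 17 the direction turned without any adjusted p passing the threshold. With library size only, miR-135b-5p in thalamus against cortex of sham rats changed to 0.19 (log2), where that scaling moved the median of all miRNAs by 0.44. The median moved by 0.18 in TBI rats. Over all miRNAs, edgeR called 21 in TBI against sham cortex, 39 with library size only and DESeq2 35. In TBI against sham thalamus the 2 calls became 1 among miRNAs with a mean count of at least 50, and in thalamus against cortex of sham rats the 102 calls became 168 with library size only. In an alternative chosen after seeing the data, without the 5 libraries under 1000000 reads, the log2 ratio of miR-135b-5p to miR-135a-5p in TBI against sham thalamus was -0.070.

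Leaving out each rat in turn, the thalamus TBI against sham log2 values ran from -0.087 to 0.14 (miR-135a-5p), from -0.11 to 0.17 (miR-135b-5p) and, for the ratio of these members, from -0.047 to 0.10. The 3p-to-5p ratio in thalamus against cortex of sham rats ran from -0.30 to 0.053. The cause of these changes was not tested. A replicate block by rat changed no call, and gave an adjusted p of 9.19e-07 for miR-135a-5p and 8.38e-06 for miR-135a-3p between the regions of sham rats. miR-135a-3p fell under a mean count of 50 in cortex, so that alternative gave no value there. The low reads of both 3p arms limit every statement about them.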
